A study of Homo sapiens with 12 samples.

Results

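NRF2 antioxidant targets were followed in K562 cells treated with an inhibitor of USP7. The group consists of 9 genes chosen by name, NQO1, HMOX1, GCLM, GCLC, TXNRD1, SRXN1, SLC7A11, TXN and PRDX1, out of 60609 genes counted. All 9 were matched to an Ensembl identifier in the files, 8 passed the filter on low counts and HMOX1 did not. K562 is an established human leukemia line of erythroid and megakaryocytic character, and FT671 blocks USP7, an enzyme that takes ubiquitin off other proteins. Of the RNA-seq libraries, 3 came from cells given the solvent DMSO and 3 from cells given 10 μM FT671 for 48 h, numbered as replicates 1 to 3 in each group. Both groups were the same parental cells. The methods describe independent experiments on this 1 line, so the p-values measure the spread between experiments and not between donors. ChIP-seq samples of the same series were not analysed here.

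NRF2, encoded by NFE2L2, is a transcription factor that answers oxidants and electrophiles. KEAP1 holds it in a CUL3 ubiquitin ligase that sends it to the proteasome, and when KEAP1 is modified NRF2 pairs with a small MAF protein on antioxidant response elements. Its targets make glutathione, keep thioredoxin reduced, remove quinones and break down heme. BACH1 pairs with the same small MAF proteins and represses several of these genes, HMOX1 among them.

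The libraries held between 4555220 and 14250500 counts, and 3 counts, taken as the smallest detectable expression, corresponded to between 0.211 and 0.659 CPM, the counts per 1000000 counts of a library. This floor covers counting error only. DMSO replicate 3 stood apart from the other DMSO libraries, where the chi-square statistic over its degrees of freedom was 7.55 and 8.73 against them. DMSO replicates 1 and 2 gave 2.94 and pairs of FT671 libraries between 2.07 and 3.20. The 11 erythroid and megakaryocytic marker genes of K562 summed to between 1297 and 1335 CPM in DMSO and between 1162 and 1205 CPM after FT671, and 10 of them passed the filter. The 8 markers of other blood cells summed to between 137 and 167 CPM in DMSO and between 172 and 188 CPM after FT671, most of it PTPRC and LYZ, with 4 or 5 of the 8 at or under the floor, and MS4A1 and ELANE, which mark B cells and granulocytes, were at 0 in all libraries. The part of these markers in the results was not tested.

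The element that NRF2 binds was taken as TGACNNNGC, and the AP-1 motif that it can contain as TGANTCA, with N any base. These letters leave out forms of the element with G after TGA, and they admit any middle base in the AP-1 motif. Both were searched on both strands in the windows that RefSeq (GRCh38.p14) gives for gene starts, lengthened to 2000 bases before and 50 after the start. Windows were given for NQO1, GCLM, GCLC, TXNRD1, SRXN1 and TXN, and not for HMOX1, SLC7A11 and PRDX1. The element in the form TGACNNNGC was present in 5 of these 6 genes, where 53.0% of all 35116 windows held it. In the 300 bases from 250 before to 50 after the start it was present in GCLM and TXNRD1, against 13.3% of all windows. A gene was counted if any of its windows held the letters, and TXNRD1 had 2 windows, whereas the percentages are shares of single windows. NQO1 held the full form TGACTCAGC, which 2.82% of the long windows contained. SRXN1 held no TGACNNNGC in the long window and 1 match to TGANTCA. The letters there read TGAGTCAGC, which differ from TGACNNNGC only in the G after TGA. All 6 genes held at least 1 match to TGANTCA, against 42.7% of all windows. In GCLM the matches were TGATTCA and TGAATCA, which lack the C or G that the AP-1 motif has in the middle. The matches nearest the start are shown, so that the letters near each start can be read beside its values, with the match in capitals and each distance measured to its first base. TXNRD1 has a pair of annotated starts, and the nearest upstream match lying wholly before each is given. A match is a description of the letters and not a site shown to be bound.
NQO1, 455 bases before its start (chr16:69726993-69727029, strand -): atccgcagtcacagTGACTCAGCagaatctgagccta
GCLM, 34 bases before its start (chr1:93909442-93909478, strand -): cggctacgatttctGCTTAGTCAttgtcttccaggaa
GCLC, 870 bases before its start (chr6:53545949-53545985, strand -): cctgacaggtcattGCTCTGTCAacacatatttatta
TXN, 581 bases before its start (chr9:110257066-110257102, strand -): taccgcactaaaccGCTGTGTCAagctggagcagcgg
TXNRD1, 99 bases before its first start (chr12:104215666-104215702, strand +): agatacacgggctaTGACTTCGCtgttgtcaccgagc
TXNRD1, 102 bases before its second start (chr12:104286916-104286952, strand +): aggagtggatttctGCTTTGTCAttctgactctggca
SRXN1, 272 bases before its start (chr20:653452-653486, strand -): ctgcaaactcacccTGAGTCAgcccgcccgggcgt
The 250 bases before the starts of both subunits of glutamate-cysteine ligase are shown beside each other, since their levels are set against each other as a ratio. Capitals mark TGACNNNGC on either strand, which lay in this window in GCLM and not in GCLC.
GCLC (chr6:53545102-53545351, strand -, 60.8% GC): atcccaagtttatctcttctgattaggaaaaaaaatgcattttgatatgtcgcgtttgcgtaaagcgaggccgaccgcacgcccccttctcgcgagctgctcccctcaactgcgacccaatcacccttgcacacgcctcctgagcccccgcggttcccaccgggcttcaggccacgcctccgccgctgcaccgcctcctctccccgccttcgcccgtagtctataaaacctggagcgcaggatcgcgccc
GCLM (chr1:93909431-93909680, strand -, 72.4% GC): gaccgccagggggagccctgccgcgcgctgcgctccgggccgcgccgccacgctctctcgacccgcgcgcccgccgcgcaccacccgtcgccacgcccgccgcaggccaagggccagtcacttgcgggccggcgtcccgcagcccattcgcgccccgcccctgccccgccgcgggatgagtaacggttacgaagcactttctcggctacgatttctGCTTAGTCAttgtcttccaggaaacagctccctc

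FT671 did not move the 9 genes in 1 direction. TXN and PRDX1 rose, GCLC, SRXN1 and GCLM fell, NQO1, TXNRD1 and SLC7A11 did not pass the test, and HMOX1 had no counts. Differences were tested with edgeR's quasi-likelihood test over 13895 genes with Benjamini-Hochberg adjustment, and fold changes are given as log2 of FT671 over DMSO. At an adjusted p of 0.05, 2 members were called higher and 3 lower, where 23.6% and 26.5% of all genes tested were called higher and lower and 50.1% were called in either direction. Calls were thus common among all genes, and the 5 of 8 is no result about the members. In bulk RNA, fewer cells of a type and less RNA per cell cannot be told apart. At a stricter threshold of 1e-05, TXN was the only member called, where 1.79% of all genes were called higher, 4.13% lower and 5.92% in either direction. The median log2 fold change of the 8 members was 0.099, and that of all genes tested was -0.010. The groups did not overlap in 3 members that were higher and 3 that were lower after FT671, against 26.8% and 30.3% of all genes, 57.1% together.

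**Figure D1:**
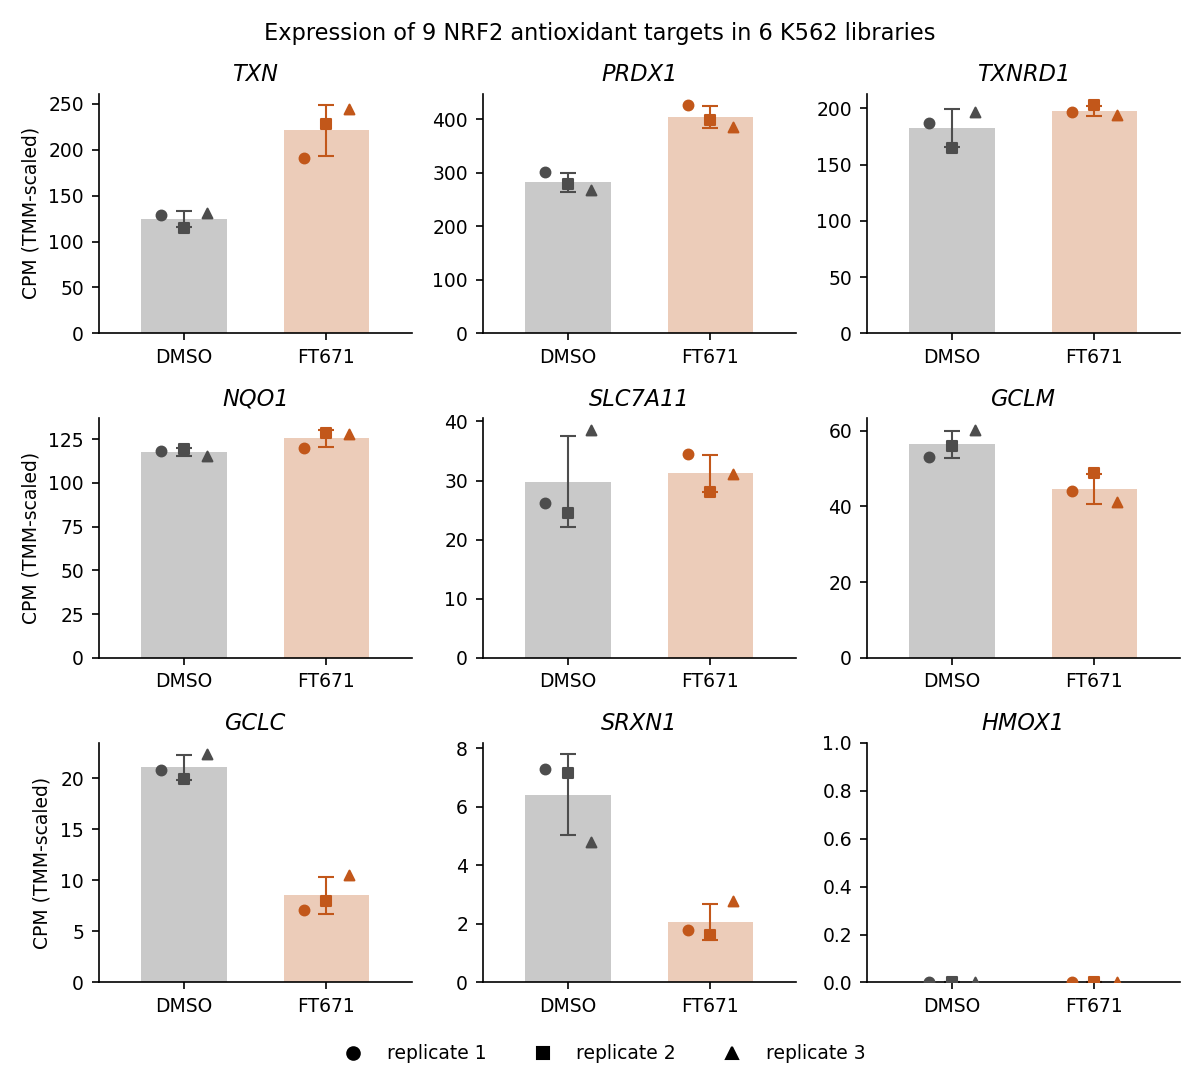
Expression of the 9 genes in each library, as CPM scaled by TMM on a linear axis from 0. Bars are means of 3 libraries, error bars SDs and symbols single libraries. TXN and PRDX1 lay higher in every FT671 library, GCLM, GCLC and SRXN1 lay lower, and HMOX1 stood at 0 in all 6.

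Thioredoxin, encoded by TXN (ENSG00000136810, chr9:110243810-110256507 in hg38), is the small disulfide reductase that hands electrons to peroxiredoxins. TXN was expressed at 129, 115 and 131 CPM in DMSO replicates 1, 2 and 3 and at 191, 229 and 245 CPM in FT671 replicates 1, 2 and 3. Every FT671 library lay above every DMSO library, and the FT671 libraries differed more among themselves than the DMSO libraries. From 125 ± 8.60 to 221 ± 27.6 CPM (SD, n = 3 each) the rise was 1.77-fold, or on the log2 scale 0.83 (with standard error 0.093, adjusted p = 7.16e-06 from edgeR). Of the 13895 genes tested, 826 had a larger positive change. The call at 0.05 held in all 18 alternative analyses, with log2 fold changes between 0.73 and 0.93, whereas no member passed 1e-05 upward in 7 of them, DMSO replicate 1, DMSO replicate 2, FT671 replicate 2 or FT671 replicate 3 left out among them. The 7 pseudogenes named after TXN together held 2 counts, against 8688 in TXN. Reads that match TXN and a pseudogene equally well may be absent from both counts.

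PRDX1 (ENSG00000117450, chr1:45510914-45542732) encodes peroxiredoxin 1, which reduces hydrogen peroxide and is itself regenerated by thioredoxin. Its expression was 301, 278 and 267 CPM in the DMSO libraries and 426, 399 and 385 CPM in the FT671 libraries, in the order of their numbers. The groups were clearly apart, with the lowest FT671 library above the highest DMSO library. The rise from 282 ± 17.6 to 403 ± 21.0 CPM (SD, n = 3 each) was 1.43-fold, or on the log2 scale 0.51 (with standard error 0.073, adjusted p = 5.92e-05 from edgeR), and it passed 0.05 in all 18 alternatives. Exons of MMACHC on the opposite strand cover 29.8% of the exon bases of PRDX1. The strand setting of the counting is not given in the sources used here, so that reads in this stretch may not be counted for PRDX1.

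TXNRD1 (ENSG00000198431, chr12:104215779-104350307) encodes the selenoprotein that reduces thioredoxin with NADPH. It was expressed at 187, 164 and 197 CPM in the DMSO libraries and at 196, 203 and 194 CPM in the FT671 libraries. The groups overlapped, with DMSO replicate 3 above the lower FT671 libraries. The log2 fold change was 0.12 (95% interval -0.052 to 0.28, adjusted p = 0.234 from edgeR). It gained a call without DMSO replicate 3 (0.16, adjusted p = 0.0399 from edgeR) and after a correction for gene length (0.24, adjusted p = 0.0112 from edgeR), and without DMSO replicate 2 it was 0.050. The pseudogene RPL18AP3, which lies inside TXNRD1 on the same strand and shares no exon bases with it, held between 992 and 3840 counts per library.

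Sulfiredoxin, encoded by SRXN1 (ENSG00000271303, chr20:646615-653200), repairs peroxiredoxins whose active cysteine has been overoxidized. Its expression was 7.27, 7.14 and 4.81 CPM in the DMSO libraries, from 105, 78 and 26 counts. After FT671 it was 1.78, 1.62 and 2.77 CPM, from 8, 9 and 31 counts. All FT671 libraries lay below all DMSO libraries, and DMSO replicate 3 was the lowest of its group. The mean fell from 6.41 ± 1.39 to 2.06 ± 0.623 CPM (SD, n = 3 each) and was 3.11-fold lower, or on the log2 scale -1.57 (with standard error 0.261, adjusted p = 2.12e-04 from edgeR). Without FT671 replicate 3, the deepest of its group, it was -1.96. The size of this fall is imprecise at these counts, and its 95% interval ran from -2.13 to -1.02. Another protein-coding gene, ENSG00000270299, covers 90.7% of the exon bases of SRXN1 on the same strand and held at most 3 counts in a library. STAR counts no read that falls on 2 genes, so that SRXN1 may have been counted over as few as 236 unshared exon bases, and its level per length was not set beside the other genes.

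The first and limiting step of glutathione synthesis is made by glutamate-cysteine ligase, whose catalytic subunit is GCLC and whose modifier subunit is GCLM. GCLC (ENSG00000001084, chr6:53497341-53616970) was expressed at 20.8, 19.97 and 22.4 CPM in the DMSO libraries and at 7.11, 7.94 and 10.5 CPM in the FT671 libraries. The groups were far apart, and FT671 replicate 3 was the highest of its group. GCLC fell from 21.1 ± 1.21 to 8.53 ± 1.79 CPM (SD, n = 3 each) and was 2.47-fold lower, or on the log2 scale -1.23 (with standard error 0.152, adjusted p = 1.67e-05 from edgeR), which passed 0.05 in all 18 alternatives. An absolute log2 fold change above 1, reached by GCLC and SRXN1 among the members, was found in 10.6% of all genes tested. The antisense gene GCLC-AS1 overlaps 3.54% of its exon bases and held between 3 and 36 counts.

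GCLM (ENSG00000023909, chr1:93885199-93909456) also fell. It was expressed at 53.1, 55.8 and 60.3 CPM in the DMSO libraries and at 43.97, 48.7 and 41.0 CPM in the FT671 libraries, without overlap. The log2 fold change was -0.34 (with standard error 0.0990, adjusted p = 0.0108 from edgeR). The call was lost without FT671 replicate 3 (-0.27, adjusted p = 0.0780 from edgeR) and held in the other 17 of 18 alternatives.

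SLC7A11 (ENSG00000151012, chr4:138164097-138242349) encodes xCT, the transporter that brings in cystine for glutathione synthesis. Its expression was 26.2, 24.5 and 38.6 CPM in the DMSO libraries and 34.4, 28.1 and 31.1 CPM in the FT671 libraries. DMSO replicate 3 was the highest of all 6, and the groups overlapped. The log2 fold change was 0.10 (95% interval -0.23 to 0.43, adjusted p = 0.606 from edgeR). Without DMSO replicate 3 it was 0.28 (adjusted p = 0.0280 from edgeR), and without DMSO replicate 1 or 2 it was 0.013 or -0.013. SLC3A2, the heavy chain with which xCT forms the transporter, rose from 396 ± 28.2 to 725 ± 22.6 CPM (SD, n = 3 each), or on the log2 scale 0.87 (adjusted p = 5.03e-07 from edgeR).

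NQO1 (ENSG00000181019, chr16:69706996-69726668) encodes the quinone reductase that is commonly used as a readout of NRF2. It was expressed at 118, 119 and 115 CPM in the DMSO libraries and at 120, 129 and 128 CPM in the FT671 libraries. The groups did not overlap, but the nearest libraries differed by less than 1 CPM. The log2 fold change was 0.096 (95% interval -0.058 to 0.25, adjusted p = 0.284 from edgeR), and it stayed between 0.057 and 0.14 in 18 alternatives, none of which passed 0.05. A lncRNA gene on the opposite strand, ENSG00000261602, overlaps 19.4% of its exon bases and held between 32 and 86 counts.

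HMOX1 (ENSG00000100292, chr22:35380361-35394214) encodes heme oxygenase 1, which opens the heme ring. It had 0 counts in all 6 libraries, and 3 counts of the 52139516 counts in all correspond to 0.0575 CPM. HMOX1 was among 4495 of the 19886 protein-coding genes matched (22.6%) that had no count in any library. No other gene of GENCODE release 44 overlaps it, and its protein-coding neighbours TOM1 and MCM5 held between 110 and 482 and between 1323 and 4140 counts. GPX1, a glutathione peroxidase that most cells express and chosen here after its values were seen, held 2 counts in DMSO replicate 2, 1 in FT671 replicate 1 and 0 in the other libraries. The annotation release behind the counts is not given in the sources used here, and whether depth or counting sets the 0 of HMOX1 was not tested.

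**Figure D2:**
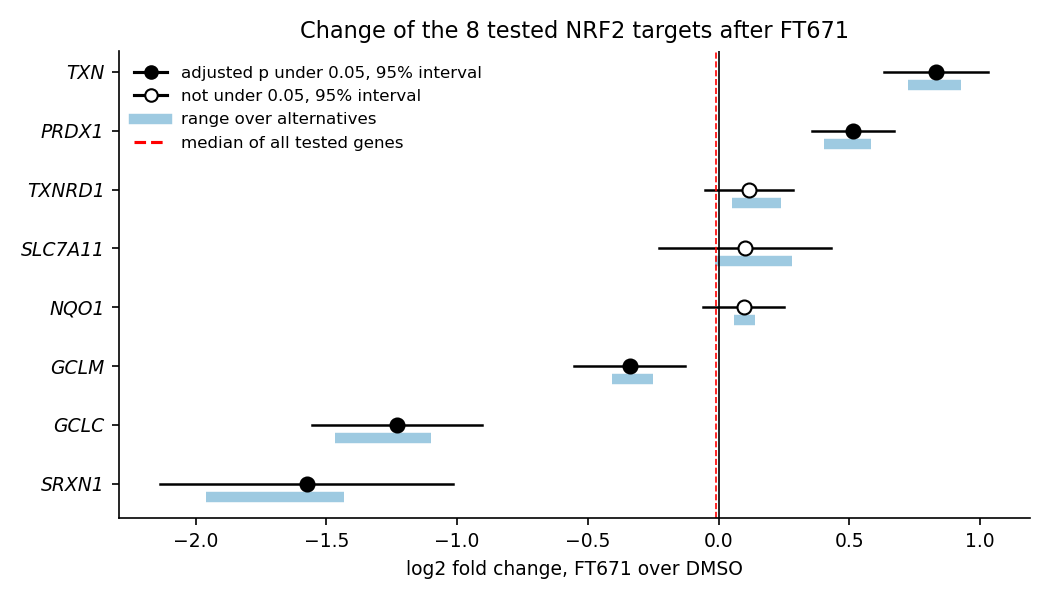
Log2 fold change of the 8 tested genes, with FT671 over DMSO to the right. Points are the fitted values with 95% intervals, filled where the adjusted p was under 0.05, blue bars span 17 or 18 alternative analyses and the dashed line is the median of all genes tested (-0.010). TXN and PRDX1 lay above 0 and GCLM, GCLC and SRXN1 below it under every alternative.

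Levels between genes were compared as CPM per kilobase of annotated exon. In DMSO the order was PRDX1 (168), TXN (124), NQO1 (39.6), TXNRD1 (27.2), GCLM (10.4), SLC7A11 (3.09) and GCLC (2.44), with SRXN1 left out for its shared exons. The libraries of neighbours in this order did not overlap between PRDX1 and TXN, TXN and NQO1, NQO1 and TXNRD1, or TXNRD1 and GCLM. SLC7A11 (2.55 to 4.01) and GCLC (2.32 to 2.60) overlapped. After FT671 the order of these 7 genes was the same. TXN (189 to 242) and PRDX1 (229 to 254) now overlapped, and GCLC (0.825 to 1.22) lay apart from SLC7A11 (2.92 to 3.57). Genes on the opposite strand share 29.8% of the exon bases of PRDX1 and 19.4% of those of NQO1. If reads there were not counted, both levels would be higher than given. The overlap of TXN and PRDX1 thus holds only for the full exon length.

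Ratios of 2 counts from the same library do not depend on scaling between libraries. They keep any shift between the groups that follows gene length, and they were not recomputed with a length correction. With that correction the log2 fold changes were 0.74 for TXN and 0.24 for TXNRD1, against 0.83 and 0.12 without it. GCLC had -1.10 and GCLM -0.25, against -1.23 and -0.34. SRXN1 had -1.62 and PRDX1 0.40, against -1.57 and 0.51. The log2 ratio of GCLC to GCLM per exon length was -2.02, -2.15 and -2.10 in DMSO and -3.30, -3.28 and -2.63 after FT671, a difference of -0.98. On the linear scale the mean ratios correspond to 0.235 in DMSO and 0.119 after FT671. The exon length joins the exons of all annotated transcripts, so that these are not numbers of catalytic for each modifier transcript. The ratio of TXNRD1 to TXN moved from -2.19 ± 0.0378 to -2.89 ± 0.188 (log2, SD, n = 3 each; exact permutation test, p = 0.1), a difference of -0.70. That of SRXN1 to PRDX1 differed by -2.17, of which the change and not the level can be read. In each of the 3 ratios every FT671 library lay below every DMSO library, and each had p = 0.1 in a two-sided exact permutation test (0.1 after Benjamini-Hochberg adjustment over 3 ratios), the smallest that 3 libraries against 3 allow.

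**Figure D3:**
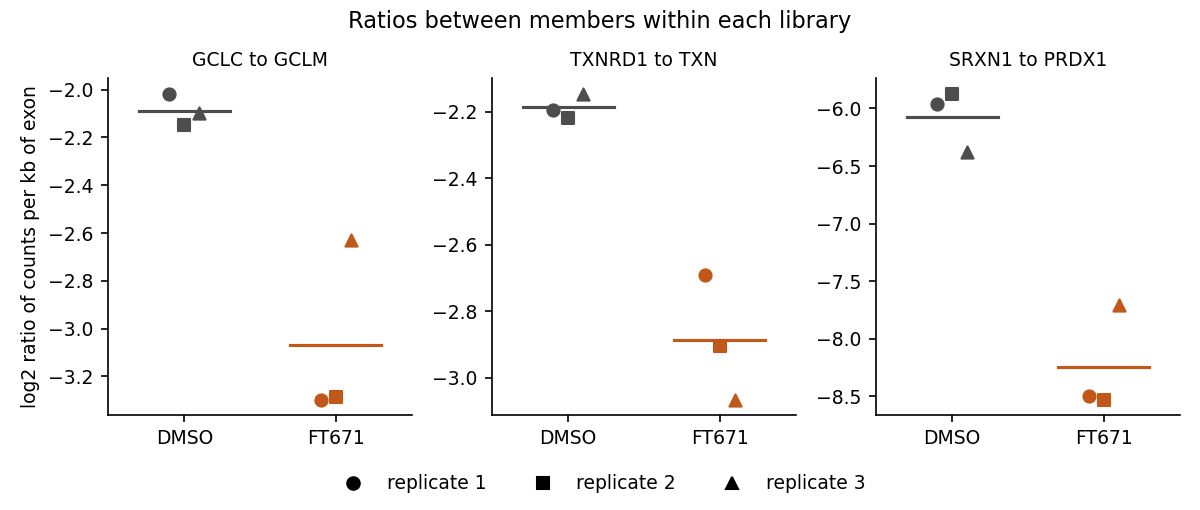
Log2 ratios of counts per kilobase of exon within each library, for GCLC to GCLM, TXNRD1 to TXN and SRXN1 to PRDX1. Symbols are replicates and lines group means of 3 libraries. All 3 ratios were lower in every FT671 library, and for GCLC to GCLM and SRXN1 to PRDX1 FT671 replicate 3 lay nearest to DMSO.

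Most genes on the list of NRF2 regulators were called lower. The list joins, among others, NFE2L2 itself, the ligase that removes NRF2, its MAF partners and the related factors NFE2L1 and NFE2. The count and the median of the list therefore give no direction for NRF2. Of 14 regulators, all tested, 11 were called lower and 2 higher at an adjusted p of 0.05, with a median log2 fold change of -0.65. Of all genes tested 26.5% were called lower and 23.6% higher, and the median was -0.010. NFE2L2 itself was expressed at 86.5, 88.0 and 110 CPM in DMSO and at 70.0, 73.2 and 73.8 CPM after FT671, with DMSO replicate 3 the highest. Its log2 fold change was -0.38 (with standard error 0.0979, adjusted p = 0.00537 from edgeR). KEAP1 fell from 106 ± 8.65 to 63.5 ± 1.69 CPM (SD, n = 3 each), or on the log2 scale -0.74 (adjusted p = 8.24e-06 from edgeR). CUL3, the scaffold of the same ligase, fell by 0.92 on the log2 scale, and its RING subunit RBX1 had a value of 0.092 (adjusted p = 0.427 from edgeR). GSK3B, which phosphorylates NRF2, fell by 0.85, BTRC, the subunit of a further ligase that recognizes the phosphorylated protein, fell by 1.14, and SQSTM1, which sequesters KEAP1, fell by 0.54.

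The small MAF partners went apart. MAFG showed the largest fall of the regulators, from 118, 125 and 109 CPM in DMSO to 45.5, 45.5 and 44.3 CPM after FT671, or on the log2 scale -1.39 (with standard error 0.084, adjusted p = 4.65e-08 from edgeR). MAFK fell by 1.18 (adjusted p = 1.13e-05 from edgeR), whereas MAFF rose by 0.65 (adjusted p = 0.00207 from edgeR) from 9.26 ± 0.967 to 14.7 ± 1.47 CPM (SD, n = 3 each). Of the repressors, BACH1 rose from 119 ± 12.2 to 144 ± 11.5 CPM (SD, n = 3 each; log2 fold change 0.29, adjusted p = 0.0155 from edgeR), a call that was lost without DMSO replicate 1, DMSO replicate 2 or FT671 replicate 2. BACH2 fell by 1.08. The related factors NFE2L1 and NFE2 fell by 0.56 and 0.52.

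**Figure D4:**
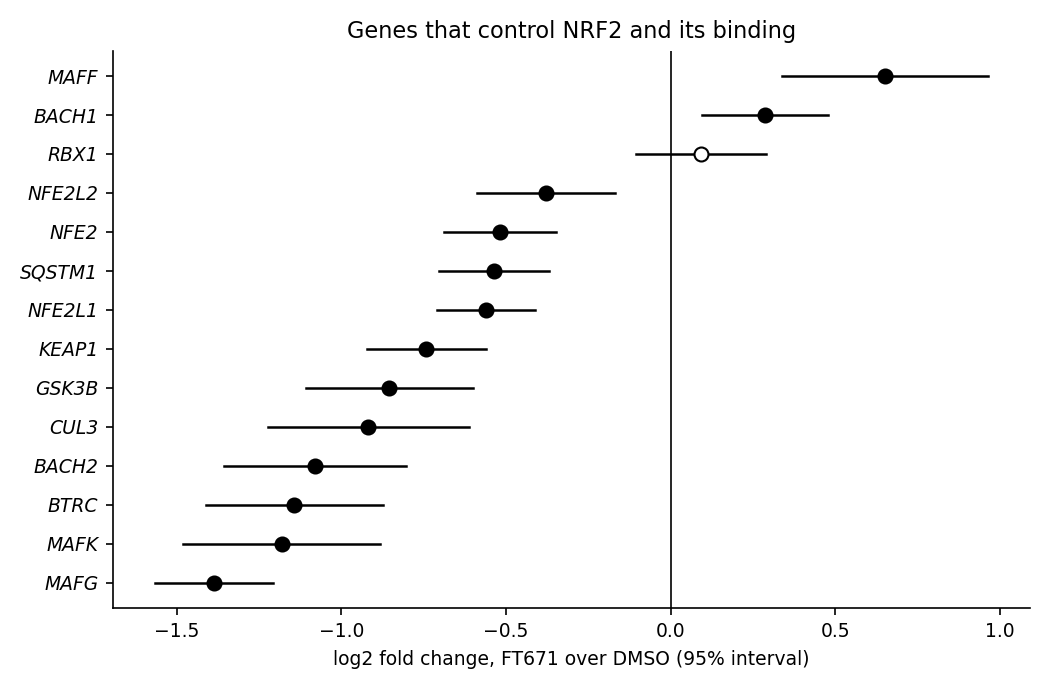
Log2 fold change of the 14 genes on the list of NRF2 regulators, related factors included, FT671 over DMSO, with 95% intervals. Filled points had an adjusted p under 0.05. MAFF and BACH1 lay above 0, RBX1 was not called and the other 11 lay below 0, with MAFG lowest at -1.39.

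Of 28 genes of the wider glutathione system 22 were tested. Of these 14 rose and 2 fell, where 23.6% of all genes rose and 26.5% fell. The median log2 fold change of the list was 0.39. The 14 became 11 without DMSO replicate 1, without FT671 replicate 1 or with at least 10 counts in every library. With the gene length correction it became 17. GSTM2 and GSTM3, glutathione transferases, rose most, by 1.31 and 1.22 in log2 units (adjusted p = 0.00260 and 5.76e-05 from edgeR). GSTM2 did so from only 1.43 ± 0.162 CPM (SD, n = 3) in DMSO. GSTM genes resemble each other closely, so that reads matching more than 1 of them may not have been counted. GPX3 and GSTZ1 fell most, to log2 values of -1.90 and -0.83 (adjusted p = 0.00148 and 0.00180 from edgeR), GPX3 from only 2.05 ± 0.517 CPM (SD, n = 3) in DMSO. GSR, which regenerates reduced glutathione, rose by 0.21, a call lost when DMSO replicate 1, DMSO replicate 2, FT671 replicate 2 or FT671 replicate 3 was left out, and GSS, which adds glycine after the ligase step, had a value of 0.20 (adjusted p = 0.0554 from edgeR). Both of these were chosen after their values were seen.

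In the thioredoxin and peroxiredoxin system 15 of 17 genes were tested, 8 of which were called higher and 1 lower (23.6% and 26.5% of all genes), with a median of 0.24. The 8 became 5 without DMSO replicate 1, without FT671 replicate 2 or without the filter on low counts. TXNRD3 and TXNDC17 rose most, by 1.38 and 0.63 (adjusted p = 0.00106 and 1.83e-04 from edgeR). TXNRD3 did so from only 1.35 ± 0.147 CPM (SD, n = 3) in DMSO, from 20, 13 and 8 counts. MSRB1, a methionine sulfoxide reductase, fell by 0.47 (adjusted p = 0.00744 from edgeR). PRDX2 and PRDX6, chosen after their values were seen, rose by 0.62 and 0.54, beside the 0.51 of PRDX1. The mitochondrial reductase TXNRD2, chosen likewise, had a value of -0.032 (adjusted p = 0.769 from edgeR) that changed sign in 7 of 18 alternatives. SOD1 rose by 0.54 (adjusted p = 1.79e-04 from edgeR), and catalase, CAT, had 0.11 (adjusted p = 0.217 from edgeR). SOD3 did not pass the filter, and SOD2 was not matched to an identifier in the files.

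Among genes of heme breakdown and ferritin, 3 of 7 were called higher and 1 lower, in a data set where 50.1% of all genes were called, so that the count is no result about the list. FTL, the ferritin light chain, rose from 3672 ± 480 to 4849 ± 115 CPM (SD, n = 3 each; log2 fold change 0.40, adjusted p = 0.00166 from edgeR), and BLVRA, a biliverdin reductase, rose by 0.35 (adjusted p = 0.00180 from edgeR). SLC48A1, a heme transporter, fell from 63.7 ± 0.274 to 31.6 ± 4.17 CPM (SD, n = 3 each; log2 fold change -0.99, adjusted p = 4.14e-06 from edgeR). HMOX2, the constitutive heme oxygenase, was expressed at 41.5 ± 5.64 and 43.4 ± 3.50 CPM (SD, n = 3 each), without a call, and was chosen after its values were seen.

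Other known NRF2 targets moved in both directions. Of 24 listed 19 were tested, 7 of which were called higher and 6 lower, against 23.6% and 26.5% of all genes, with a median of -0.11. The 7 became 5 without the filter on low counts or when any 1 of the FT671 libraries was left out. PIR and ME1, an NADPH-producing malic enzyme, rose most, by 0.78 and 0.55 (adjusted p = 9.15e-04 and 0.00286 from edgeR), and AKR1C3 and IDH1 fell most, to log2 values of -1.43 (adjusted p = 0.00237 from edgeR) and -1.201 (6.05e-07). The AKR1C genes are near copies of each other, and AKR1C1 and AKR1C2 fell as well, by 0.70 and 0.58. OSGIN1 fell by 1.13. TALDO1, TKT and PGD, enzymes of the pentose phosphate pathway, rose by 0.38, 0.31 and 0.19. For PGD the call was lost without DMSO replicate 1 or any 1 of the FT671 libraries. AKR1C1, AKR1C2, OSGIN1, TALDO1, TKT and PGD were chosen after their values were seen.

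SLC7A11 is also a target of ATF4, and of 9 genes on that side 3 were called higher and 4 lower, where 50.1% of all genes were called in either direction. ATF3 rose from 16.6 ± 0.655 to 51.5 ± 1.55 CPM (SD, n = 3 each; log2 fold change 1.62, adjusted p = 5.15e-08 from edgeR), next to the rise of SLC3A2. TRIB3 fell from 163 ± 18.0 to 50.2 ± 4.72 CPM (SD, n = 3 each; log2 fold change -1.71, adjusted p = 3.07e-08 from edgeR), and CHAC1, which degrades glutathione, fell by 1.02 (adjusted p = 0.00838 from edgeR), without a call when FT671 replicate 3 was left out. ATF4 itself, chosen after its value was seen, rose by 0.38.

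**Figure D5:**
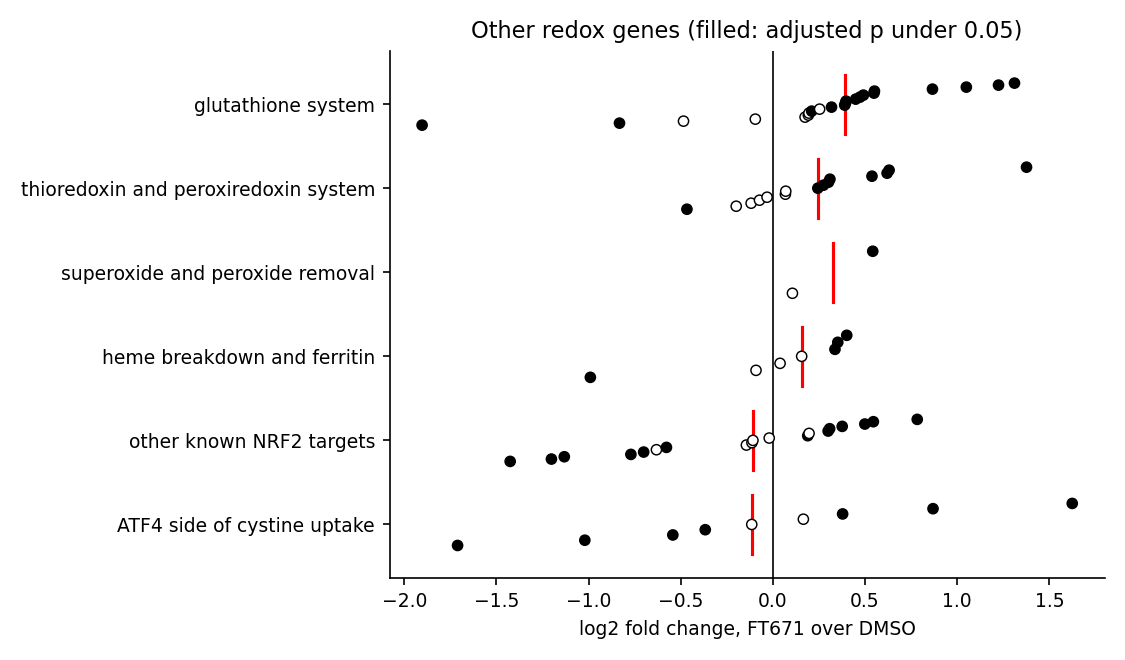
Log2 fold change, FT671 over DMSO, of every tested gene in 6 lists of related genes. Each point is a gene, filled where the adjusted p was under 0.05, and red lines are medians. The glutathione list has its median at 0.39, and the list of other NRF2 targets spreads to both sides of 0.

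SRXN1 had the largest log2 fold change of the members, and the tested genes whose log2 CPM followed it most closely over the 6 libraries were MRPL51, SLC25A38 and CEBPB-AS1, with Pearson's r of 0.997, 0.997 and 0.996. Their log2 fold changes were -0.63, -0.29 and -0.998. These are correlations over 6 libraries of 2 groups that differ in many genes, and 19 genes had an r above 0.99.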

How the data were processed

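RNA-seq of K562 cells treated with DMSO or FT671 (3 libraries each) was used. According to the study's methods and the labels, ribosomal RNA was removed (KAPA HyperPrep with RiboErase), and paired-end reads were aligned to hg38 by STAR in 2-pass mode. The authors deposited STAR's read counts per gene, not normalized. The version of STAR, the annotation release and the strand setting are not given in the sources used here. Symbols, positions, exon length and GC content came from GENCODE release 44, which matched 60295 of 60609 genes.

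Counts were filtered with filterByExpr, scaled by TMM and tested with the quasi-likelihood test of edgeR 4.0.16 in R 4.3.3, without covariates. The standard error is the log2 fold change over the square root of F. DESeq2 1.42.0, other scalings and filters, a replicate block, loess corrections for length and GC (span 0.3), thinning and leaving out each library were the alternatives. Named genes are the 9 members, the NRF2 regulators, up to 2 rises and 2 falls past 0.05 (mean 1 CPM or more) in each other list, overlapping genes and the 3 genes most like the member with the largest change. The members and lists were chosen with earlier results of these data known.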

Additional observations from a re-analysis of the deposited data

How the results depend on the processing

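The number of members called higher stayed at 2 or 3 in all alternatives but one: without DMSO replicate 3, TXNRD1 and SLC7A11 joined and it was 4 (range 2 to 4 with a library left out). The number called lower was 2 or 3. It was 2 without FT671 replicate 3, where GCLM lost its call, and with at least 10 counts in every library, where SRXN1 was not tested. With a library left out, log2 fold changes ran from -0.41 to -0.27 for GCLM, from 0.050 to 0.16 for TXNRD1 and from -0.013 to 0.28 for SLC7A11, which changed sign without DMSO replicate 2. TXNRD1 also passed 0.05 with the gene length correction (0.24), with that correction and the replicate block (0.24) and with the GC correction and the block (0.15). At 1e-05 between 0 and 2 members were called higher and between 0 and 2 lower. TXN, PRDX1, GCLC and SRXN1 kept their calls at 0.05 under every alternative in which they were tested. Of 1565 values of the 88 pathway genes, 52 lost a call and 26 gained one. Another 31, of 9 genes called by neither analysis, changed sign. With the length correction TXNRD2 was 0.095, PRDX4 -0.024, PRDX5 -0.014 and ABCC1 0.024, and with the block added these were 0.11, -0.017, -0.0094 and 0.027, AKR1B1 0.32 and TRIM16 0.098. With the GC correction TXNRD2 was 0.058 and AKR1B1 0.070, and with the block added 0.052 and 0.39, with TRIM16 at 0.067. Thinned, MGST2 was 0.012, TXNRD2 0.033, MSRA 0.0092 and TRIM16 0.26. AKR1B1 was 0.16 by DESeq2 and 0.30 with the block alone, where TRIM16 was 0.0050, and HMOX2 was -0.0021 without the filter. With a library left out the ranges were -0.21 to 0.060 for MGST2, -0.086 to 0.016 for TXNRD2, -0.011 to 0.12 for PRDX4, -0.043 to 0.16 for PRDX5, -0.062 to 0.13 for HMOX2 and -0.21 to 0.10 for TRIM16. Higher calls made up 47.0% of all calls, and between 43.1% and 53.7% under the alternatives.

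The labels give same-numbered libraries a shared number and do not say whether they came from the same experiment. Their deviations from the group means had r of 0.115, -0.0605 and 0.14 across genes. The 0.14 was the highest of all pairs, but FT671 replicate 1 was closer to DMSO replicate 2 (0.125). Such weak correlations from 3 libraries per group cannot decide whether the libraries were paired. With the replicate block 2 members were called higher and 3 lower, and all genes gave 3374 higher and 3761 lower calls, against 3276 and 3687 without it. For the ratios 3 pairs allow no p below 0.25 in the exact permutation test.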
